A study of Homo sapiens with 3 samples.

Results

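Of the 20907 eCLIP peaks on chromosomes 1 to 22 and X, 921 had their centre inside the spans of 2 or more protein-coding genes (4.41%, Wilson 95% interval 4.14 to 4.69%). They were chosen from the deposited list of 21031 peaks by position alone, with the gene spans of NCBI RefSeq GRCh38.p14, so neither the depth nor the strand of a peak entered the choice. Another 18341 peaks lay in exactly 1 coding gene (87.7%) and 1645 in none (7.87%). The 921 peaks are called overlap peaks here, and the 18341 are called single-gene peaks. Of the overlap peaks, 893 lay in 2 coding genes, 18 in 3, 3 in 4, 1 in 5, 2 in 8 and 4 in 9.

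The study measured which RNAs were crosslinked to the mouse pregnane X receptor (Pxr, also PXR, gene Nr1i2), a ligand-activated nuclear receptor, in LS174T, a human colon adenocarcinoma cell line. In every library the cells had been transfected for 24 h with HA-tagged mouse Pxr, so no library without the receptor construct is part of the series as given here, and the tagged protein comes from another species than the RNA. Per the labels, 20 M cells a reaction were crosslinked at 254 nm and 400 mJ/cm2, the lysate was digested with RNase I and Turbo DNase, and antibodies to PXR, to HA or a control IgG were added (which one served for which library is unstated in the sources used here). By the labels the libraries are 2 immunoprecipitates (IP) and 1 input, and the data are 1 list of IP peaks without values of single libraries, so replicate spread is unknown for every value below and samples could not be tested against each other.

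Coding genes overlap in a few ways. Neighbours on opposite strands can share their downstream ends (convergent) or their starts (divergent), a short gene can lie inside a long one, and a readthrough gene is annotated where transcription runs from one gene into the next on the same strand. The RNAs of genes on opposite strands are complementary, so a method that keeps the strand of its reads, as eCLIP does, shows which of them a peak came from. For genes on the same strand it cannot. Pxr is a receptor for drugs and bile acids in gut and liver and binds DNA at pairs of half-sites, and binding of RNA is the question that eCLIP addresses.

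Divergent genes show most plainly what strand adds, because there an RNA of 1 gene crosses the promoter of the other. The 4 windows below are the promoter windows of the gene on the opposite strand for which a divergent peak covered at least 100 bases and had most reads. Each runs from 250 bases before to 50 after the gene's start, was read from RefSeq GRCh38.p14, and is written 5′ to 3′ on that gene's strand. Capitals mark the bases under the peak, whose own RNA is the complement of these letters. FAM120AOS lies at chr9:93451559-93451858 on the minus strand, EME2 at chr16:1772560-1772859 on the plus strand, S100A13 at chr1:153634312-153634611 on the minus strand and ACBD4 at chr17:45132369-45132668 on the plus strand.
FAM120AOS: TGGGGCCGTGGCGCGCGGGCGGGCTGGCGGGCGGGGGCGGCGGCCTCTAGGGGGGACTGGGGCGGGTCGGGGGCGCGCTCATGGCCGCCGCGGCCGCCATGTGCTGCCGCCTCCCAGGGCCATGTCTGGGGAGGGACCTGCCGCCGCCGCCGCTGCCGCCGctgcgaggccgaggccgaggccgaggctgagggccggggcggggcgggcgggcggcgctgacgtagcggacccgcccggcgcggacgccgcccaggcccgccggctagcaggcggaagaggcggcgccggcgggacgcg
EME2: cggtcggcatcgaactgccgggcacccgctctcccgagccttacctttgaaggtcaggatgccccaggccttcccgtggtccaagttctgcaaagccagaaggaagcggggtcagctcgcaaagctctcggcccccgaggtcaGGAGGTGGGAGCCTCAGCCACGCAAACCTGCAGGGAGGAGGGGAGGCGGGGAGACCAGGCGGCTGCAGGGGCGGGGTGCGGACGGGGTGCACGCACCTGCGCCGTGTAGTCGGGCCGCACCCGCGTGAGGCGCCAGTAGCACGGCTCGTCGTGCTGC
S100A13: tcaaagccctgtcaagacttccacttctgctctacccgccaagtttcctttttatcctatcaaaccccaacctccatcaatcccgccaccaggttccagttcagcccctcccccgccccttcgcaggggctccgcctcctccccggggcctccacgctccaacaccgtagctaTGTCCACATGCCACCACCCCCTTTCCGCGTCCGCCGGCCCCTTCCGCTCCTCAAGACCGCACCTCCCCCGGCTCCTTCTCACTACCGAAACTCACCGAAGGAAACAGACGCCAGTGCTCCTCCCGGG
ACBD4: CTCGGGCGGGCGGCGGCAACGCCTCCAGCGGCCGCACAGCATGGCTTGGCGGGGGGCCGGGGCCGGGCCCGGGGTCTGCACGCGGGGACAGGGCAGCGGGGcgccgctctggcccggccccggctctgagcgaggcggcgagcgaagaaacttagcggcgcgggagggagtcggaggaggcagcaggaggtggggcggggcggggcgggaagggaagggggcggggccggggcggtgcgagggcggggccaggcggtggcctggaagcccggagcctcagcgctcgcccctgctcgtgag

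The peak over the FAM120AOS window lay on the plus strand, that of FAM120A, an RNA-binding protein gene, with 78 reads and a fold of 13.5, and covered 161 of the 300 bases. MRPS34, for a protein of the small mitochondrial ribosomal subunit, was on the strand of the peak at EME2, which held 66 reads and covered 157 bases. At S100A13 the peak was on the strand of CHTOP, a nuclear RNA-binding protein gene, had 61 reads and covered 127 bases. PLCD3, a phospholipase C gene, was on the strand of the peak at ACBD4, which had 58 reads and covered 101 bases. The strand of these 4 peaks follows from the choice of the opposite gene's window and is no finding. Of the 140 divergent peaks, 59 touched a promoter window of the gene on the opposite strand and 30 one of the gene on their own strand. The 74 opposite-strand windows touched had a median GC content of 67.7% (48.3 to 84.3%), against 58.7% over all 35116 windows in the table. A half-site of nuclear receptors, AGGTCA or AGTTCA on either strand, was found in 7 of the 74 windows (9.46%), against 7945 of all windows (22.6%). Some of the 74 are windows of the same gene that overlap each other, so they are not separate stretches. The part of their higher GC content in this difference was not tested, and no lack of half-sites is read from it. Among the 4 printed windows a half-site was found in those of EME2 and S100A13, in both only in lower-case letters, outside the bases under the peak. A match is a description of the letters and no evidence of a site.

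Reads at the summit were recovered from the deposited fold and −log10 p, taking fold as summit over background with the same constant added to each. The background was read as the reads of the 10 kb around the summit, scaled to the same width. This form is inferred, since the processing notes do not state it, and so are the reads per 10 kb given below. Throughout, the reads given for a peak are those at its summit, and a wide peak can hold more. At ADGRL3 with LOC124900173 the 10 kb value came to 11.78, so the background is not a plain local count at every peak. In depth and fold the overlap peaks were close to the single-gene peaks. Their median was 21 reads (quartiles 14 to 34), against 22 (14 to 35) in single-gene peaks, and their median fold was 5.80 (4.69 to 7.46), against 5.93 (4.77 to 7.65). They were a little wider, with a median of 280 bases (215 to 410) against 267 (212 to 385). A summit of 21 reads has an exact Poisson 95% interval of 13.0 to 32.1, which covers counting error only, since copies of a molecule made by PCR were not told apart. Peaks with fewer than 10 reads made up 9.55% of overlap peaks (88, Wilson interval 7.82 to 11.6%) and 8.40% of single-gene peaks.

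The largest values made up a smaller share of the overlap peaks. A fold of 20 or more was reached by 3 overlap peaks (0.326%, Wilson interval 0.111 to 0.953%) and by 194 single-gene peaks (1.06%, 0.920 to 1.22%). More than 200 reads lay under 5 overlap summits (0.543%, 0.232 to 1.26%) and under 168 single-gene summits (0.916%, 0.788 to 1.06%). In both comparisons, of fold and of reads, the 2 intervals overlap. The highest fold was 23.3 among the 921 overlap peaks and 49.8 among the 18341 single-gene peaks, and the larger group can be expected to reach further. Peaks are not replicates, so these differences describe 1 list and carry no test.

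**Figure D1:**
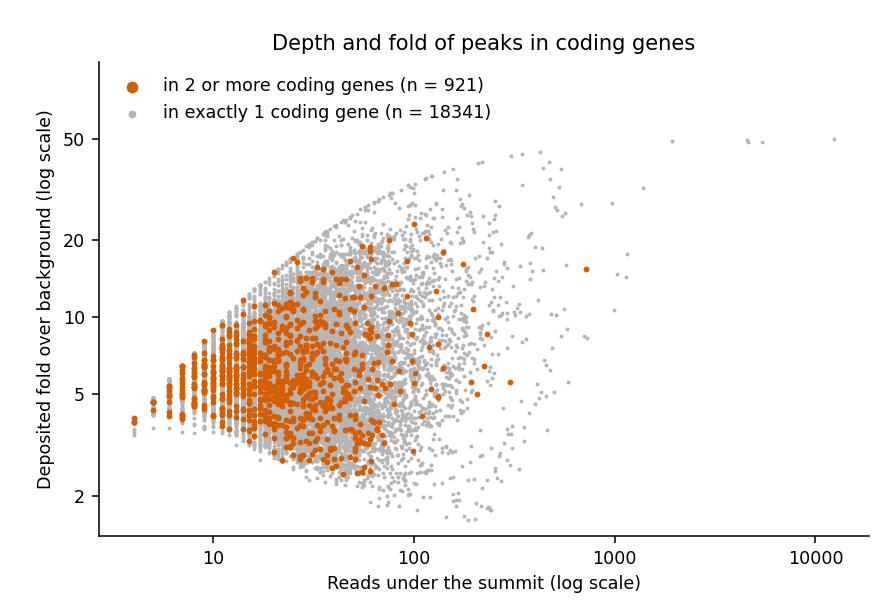
Reads under the summit (x axis, log scale) and deposited fold over background (y axis, log scale) of each peak in a coding gene, with the 921 overlap peaks in orange over the 18341 single-gene peaks in grey. The orange points fill the middle of the grey cloud and stop at a fold of 23.3 and at 721 reads, where the grey points reach 49.8 and 12385.

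Relative to the sequence they occupy, peaks were denser in the overlaps. The overlaps of coding genes cover 26.3 Mb, which is 2.09% of all coding-gene sequence, and hold 4.78% of the peaks in coding genes. That is 35.0 peaks per Mb (Poisson interval 32.8 to 37.4), against 14.9 (14.7 to 15.1) in sequence of exactly 1 coding gene. The density was 38.2 peaks per Mb where the genes run on opposite strands (interval 34.7 to 41.9) and 27.8 where they run on the same strand (24.2 to 31.8). Each base was counted once, although peaks are stranded and overlaps of opposite-strand genes hold a gene on either strand. These densities are thus not per gene strand, and no order of the arrangements is drawn from them. Expression of the genes was not measured here, and its part in these densities was not tested. As a check of the labelled cell type, 11 of 12 colon epithelial markers had a peak anywhere in the list, against none of 6 hepatocyte, 5 blood and 6 fibroblast or endothelial markers, and 8319 of all 19839 coding genes did (41.9%). An overlap peak was found in 2 of the 12, KRT8 and KRT18.

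The 921 overlap peaks fell in 611 different sets of overlapping genes, of which 439 held a single peak and 28 held 4 or more, and 1162 coding genes took part. By the spans alone, 467 peaks lay where 2 genes overlap in part (50.7%, Wilson interval 47.5 to 53.9%), 241 where one gene lies inside the other (26.2%, 23.4 to 29.1%) and 201 where a readthrough gene overlaps a gene it joins (21.8%, 19.3 to 24.6%). Another 19 peaks lay in a readthrough gene and a gene it does not join, and are counted by their spans as nested or partial. A further 7 lay in the UGT1A or PCDHA gene families, and 5 in other sets of 3 or more genes. The median fold was 5.98 in partial overlaps, 5.63 in nested ones and 5.56 at readthrough genes, and the median reads were 21, 21 and 20, so the kinds differed little in depth.

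**Figure D2:**
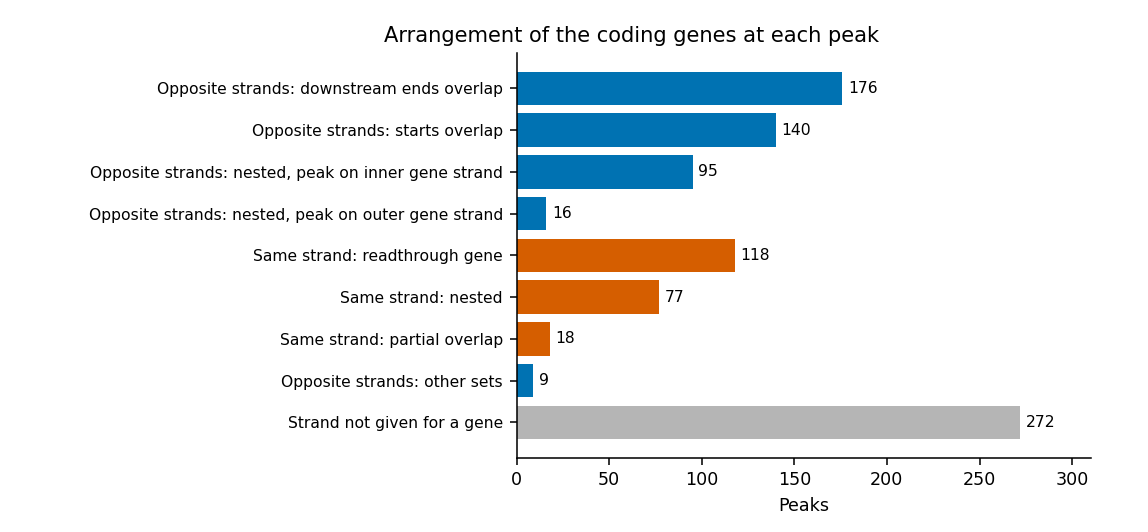
Number of overlap peaks (x axis) in each arrangement of coding genes, with genes on opposite strands in blue, genes on the same strand in orange and sets with a gene of no given strand in grey. The longest bar of a known arrangement is that of overlapping downstream ends, with 176 peaks.

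Strand of the genes was taken from the RefSeq promoter table, which held 960 of the 1162 genes and gave the strand of every gene for 649 overlap peaks. In 436 the genes ran on opposite strands (47.3% of the 921, Wilson interval 44.1 to 50.6%), in 213 on the same strand (23.1%), and for 272 (29.5%) at least 1 gene had no strand here. Peaks themselves were on the plus strand in 473 cases (51.4%, 48.1 to 54.6%), against 52.6% of single-gene peaks.

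Where all genes ran the same way, nearly every peak lay on their strand. This held for 207 of 213 peaks (97.2%, Wilson interval 94.0 to 98.7%), and among single-gene peaks for 14759 of 15190 with a strand (97.2%). The share on the opposite strand from all genes was 2.82% (1.30 to 6.01%) in these overlaps, against 2.84% (2.59 to 3.11%) in single-gene peaks. All 6 such peaks were shallow, with 4 to 14 reads. The deepest, in RANBP2 and SH3RF3 at chr2:109140953-109141153, held all 14 reads of its 10 kb at a fold of 11.7 and a width of 201 bases. The others lay in ADGRL3 with LOC124900173 (10 reads), HOXA10 with HOXA10-HOXA9 (9 reads), FMC1-LUC7L2 with LUC7L2 (7 reads), NOX5 with SPESP1-NOX5 (7 reads) and BORCS8-MEF2B with MEF2B (4 reads).

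Of the peaks between genes of opposite strands, 427 lay in exactly 2 genes, in 315 pairs, and the strand names 1 gene of each pair. Convergent pairs held 176 of these peaks in 125 pairs, divergent pairs 140 in 127 pairs, and pairs with one gene inside the other 111 in 63 pairs. The remaining 9 peaks lay in readthrough genes or larger sets.

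Convergent pairs held the deepest of these peaks. Their median was 23 reads and a fold of 5.52, the overlap of the genes had a median length of 4991 bases, and 107 of the peaks were minus-strand and 69 plus-strand. PYGB, for the brain form of glycogen phosphorylase, had the deepest, with 301 reads (Poisson interval 268 to 337) at a fold of 5.60. It lay on the plus strand at chr20:25296452-25298072, with its centre 750 bases before the end of PYGB, where the gene of the lysophospholipase ABHD12 comes in from the other side. PYGB had a further peak of 282 reads outside the overlap, and the deepest peak of ABHD12 outside it held 42 reads.

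CEMIP, for a hyaluronan-binding protein, had 205 reads (178 to 235) over its end, on the strand opposite to MESD, a chaperone of receptors of the Wnt pathway. The peak was the widest of all overlap peaks, at 2314 bases, and its fold was 5.01. Outside the overlap, CEMIP reached 307 reads and MESD 33. PPIB, for cyclophilin B of the endoplasmic reticulum, had 140 reads (118 to 165) at a fold of 18.1, 106 bases from its end in the gene of the sorting nexin SNX22. A second PPIB peak of 75 reads lay in the same overlap, and SNX22 had no peak of its own strand outside it.

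SEC61A1, for the pore subunit of the protein translocon, had 4 peaks of 61 to 139 reads in the overlap, all on its own strand and opposite to the helicase-like ATPase gene RUVBL1. HNRNPAB, for a nuclear RNA-binding protein, had peaks of 101 and 100 reads opposite to PHYKPL. At SQSTM1, for the autophagy receptor p62, the overlap with MRNIP held 99 reads at a fold of 3.02, beside 372 reads elsewhere in SQSTM1. In each of these 3 pairs the gene on the strand of the peaks also had the deeper peak outside the overlap.

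The pair of RPL28, for a protein of the large ribosomal subunit, and UBE2S, for a ubiquitin-conjugating enzyme, ran the other way. Its peak, at chr19:55401353-55401648 on the minus strand, lay on UBE2S with 75 reads (59.0 to 94.0) and a fold of 20.1, although RPL28 was the deeper gene outside the overlap, with 162 reads against 101 for UBE2S. Without strand the peak would have counted for both.

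Divergent peaks were shallower and higher in fold, with a median of 18 reads and a fold of 6.59. The genes overlapped over a median of 828 bases, and 71 of the peaks were plus-strand and 69 minus-strand. LTAP1 had the highest fold of all overlap peaks, 23.3, with 100 reads at the summit and 167 in its 10 kb, at chr1:154220227-154220555 on the minus strand. Its centre lay 199 bases after the start of LTAP1, inside the span of UBAP2L, a gene of a ribosome-associated protein on the plus strand.

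Other divergent peaks also lay near the start of the gene on their strand. CCT4, for a subunit of the cytosolic chaperonin, had 48 reads at a fold of 16.6 where its start overlaps COMMD1, 251 bases from the start. ALYREF, an mRNA export adaptor gene, had 56 reads at a fold of 11.0, 253 bases from its start and opposite to ANAPC11. PRDX5, for a peroxiredoxin, had 65 reads 264 bases from its start, opposite to TRMT112, and MGAT4B, for a glycosyltransferase of the Golgi, had 63 reads 312 bases from its start, opposite to SQSTM1.

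By construction, overlaps of convergent genes sit at downstream ends and overlaps of divergent genes at starts, so the distances of these peaks follow from the arrangement in part. Convergent peaks had a median of 838 bases to the downstream end of the gene on their strand (quartiles 302 to 2801), and 67 of 176 lay within 500 bases of it (38.1%, Wilson interval 31.2 to 45.4%). Single-gene peaks on the strand of their gene had a median of 14011 bases, and 9.32% lay within 500. Divergent peaks lay at a median of 303.5 bases from the start (225 to 508), and 103 of 140 within 500 bases (73.6%, 65.7 to 80.2%), against 20.1% of single-gene peaks. Peaks on inner genes lay between, at a median of 2125 bases from the start and 3208 from the downstream end.

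**Figure D3:**
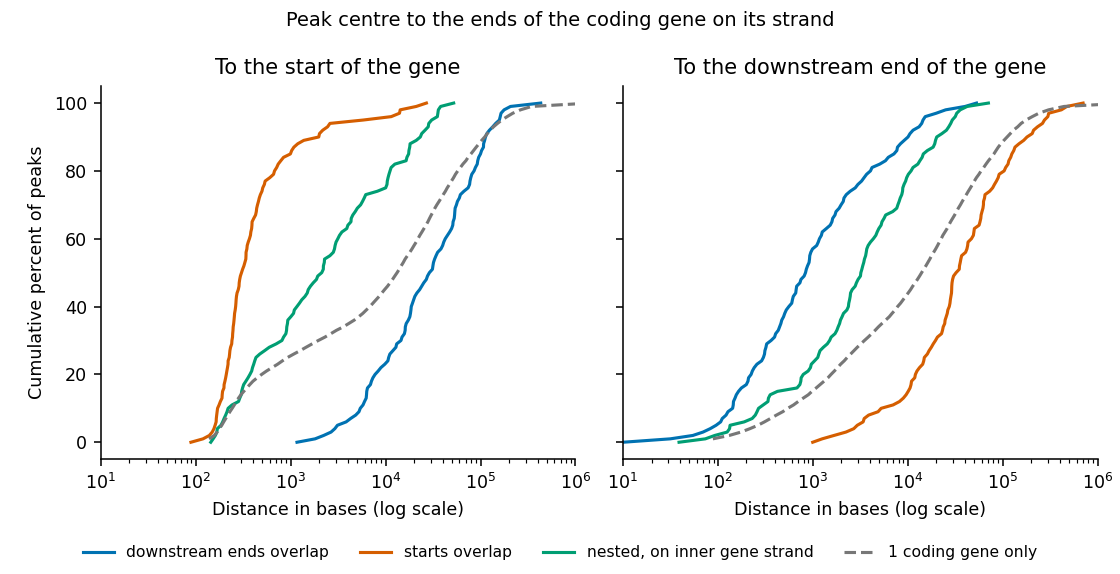
Cumulative percent of peaks (y axis) by the distance in bases (x axis, log scale, from 10 bases on) of the peak centre from the start (left) and the downstream end (right) of the coding gene on its strand, for 3 arrangements and for single-gene peaks (dashed). The divergent curve is steepest near the start, with a median of 303.5 bases, and the convergent curve lies leftmost at the downstream end, with a median of 838 bases.

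Peaks elsewhere in the same genes show which gene of a pair was otherwise in the list. At 144 of the 176 convergent peaks the gene on the strand of the peak also had a peak on its own strand outside any overlap (81.8%, Wilson interval 75.5 to 86.8%), and the gene on the opposite strand had one at 94 (53.4%, 46.0 to 60.6%). At 65 peaks this was so for the gene on the strand of the peak alone, at 15 for the opposite gene alone, at 79 for both and at 17 for neither. Divergent peaks gave 91 of 140 (65.0%, 56.8 to 72.4%) and 62 of 140 (44.3%, 36.3 to 52.6%), with 51 for the gene on the strand of the peak alone, 22 for the opposite gene alone, 40 for both and 27 for neither. The 176 peaks lay in 125 pairs and the 140 in 127, so a pair with several peaks was counted at each. The intervals treat such repeats as separate and are too narrow for pairs. Over all coding genes, 8319 of 19839 had a peak of any kind (41.9%), a wider measure that counts genes and not peaks. The share of 44.3% for opposite genes at divergent peaks is near it and is not read as a trait of those genes. The genes had like lengths, with medians of 31328 and 30575 bases at convergent peaks for the gene on the strand of the peak and the opposite gene. In 94 convergent and 62 divergent cases the opposite gene was thus itself in the list through another peak. If strand were left out, each of the 176 convergent and 140 divergent peaks would have counted for both genes of its pair.

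**Figure D4:**
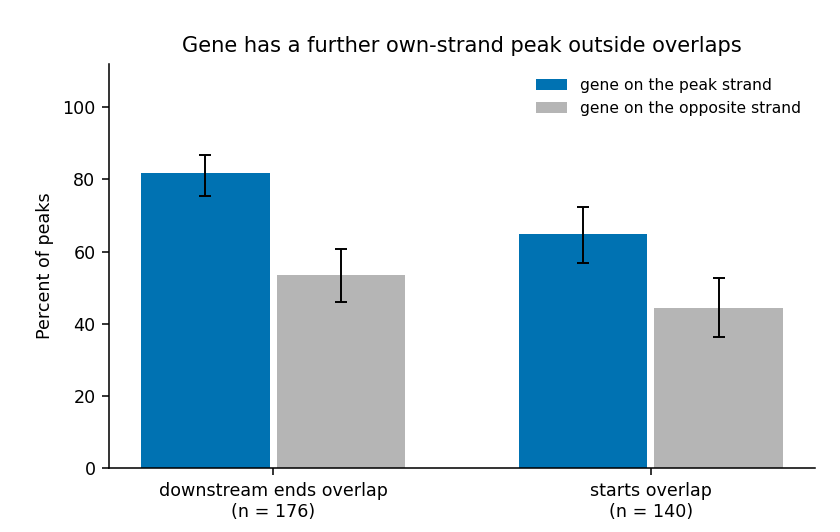
Percent of overlap peaks (y axis, bars from 0, whiskers are Wilson 95% intervals) at which the gene on the strand of the peak (blue) or the gene on the opposite strand (grey) had a further peak on its own strand outside overlaps. The blue bar is higher in both arrangements, at 81.8 and 65.0%, against 53.4 and 44.3% for the grey bars. Peaks were counted and not pairs, and the whiskers treat several peaks of a pair as separate.

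Where a gene lies inside a longer one on the opposite strand, most peaks were on the strand of the inner gene. This held for 95 of 111 peaks (85.6%, Wilson interval 77.9 to 90.9%), and 16 were on that of the outer gene (14.4%, 9.07 to 22.1%). Of the 63 pairs, 49 had peaks on the inner gene alone, 11 on the outer gene alone and 3 on both. At 33 of the 95 inner-gene peaks the outer gene had a peak of its own strand outside overlaps. Over all coding genes, 8319 of 19839 had a peak of any kind (41.9%), a wider measure that counts genes and not peaks. The count of 33 is thus not read as a trait of outer genes. An inner gene has no sequence outside the overlap and could not be compared in this way.

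RPL15, for a protein of the large ribosomal subunit, lies inside NKIRAS1 and had the deepest inner-gene peak, with 92 reads (74.2 to 113) at a fold of 16.6, at chr3:23919200-23919613 on the plus strand. A second RPL15 peak held 20 reads, and NKIRAS1, a regulator of NF-kappaB signalling, had 8 reads in 1 peak on the minus strand. GPX2, for a glutathione peroxidase of the gut epithelium, lies inside the readthrough gene CHURC1-FNTB and had peaks of 83 and 74 reads on its own strand. PCK2, for the mitochondrial phosphoenolpyruvate carboxykinase, had 6 peaks of 50 to 78 reads, all on the plus strand, inside the retinal transcription factor gene NRL, which is on the minus strand. At these 3 loci a single peak, that of NKIRAS1, lay on an outer gene.

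RPL35A, another ribosomal protein gene, had 61 and 57 reads inside DRC9. FAM83G held 7 peaks of 19 to 24 reads, all on its minus strand inside the sugar transporter gene SLC5A10, and LRFN4 held 5 of 26 to 32 reads inside the pyruvate carboxylase gene PC. Peaks on the outer gene were led by ABHD2, a serine hydrolase gene, with 72 and 41 reads over LOC124903573. ZNF428 followed with 35 reads at a fold of 14.2 over SRRM5.

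GPHN, for the scaffold protein gephyrin, is a long gene with several others inside it, and held 31 peaks. Of its 24 plus-strand peaks 8 lay in a further coding gene, and all 7 minus-strand peaks did. The minus-strand peaks lay in RDH11, for a retinol dehydrogenase (4 peaks, 15 to 29 reads), PLEK2, for pleckstrin 2 (2 peaks, 18 and 15 reads), and PIGH, for a subunit of the enzyme that starts GPI anchors (1 peak, 14 reads). RDH11 and PLEK2 are minus-strand genes, and PIGH had no strand here. No minus-strand peak thus remained that lay in GPHN alone.

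**Figure D5:**
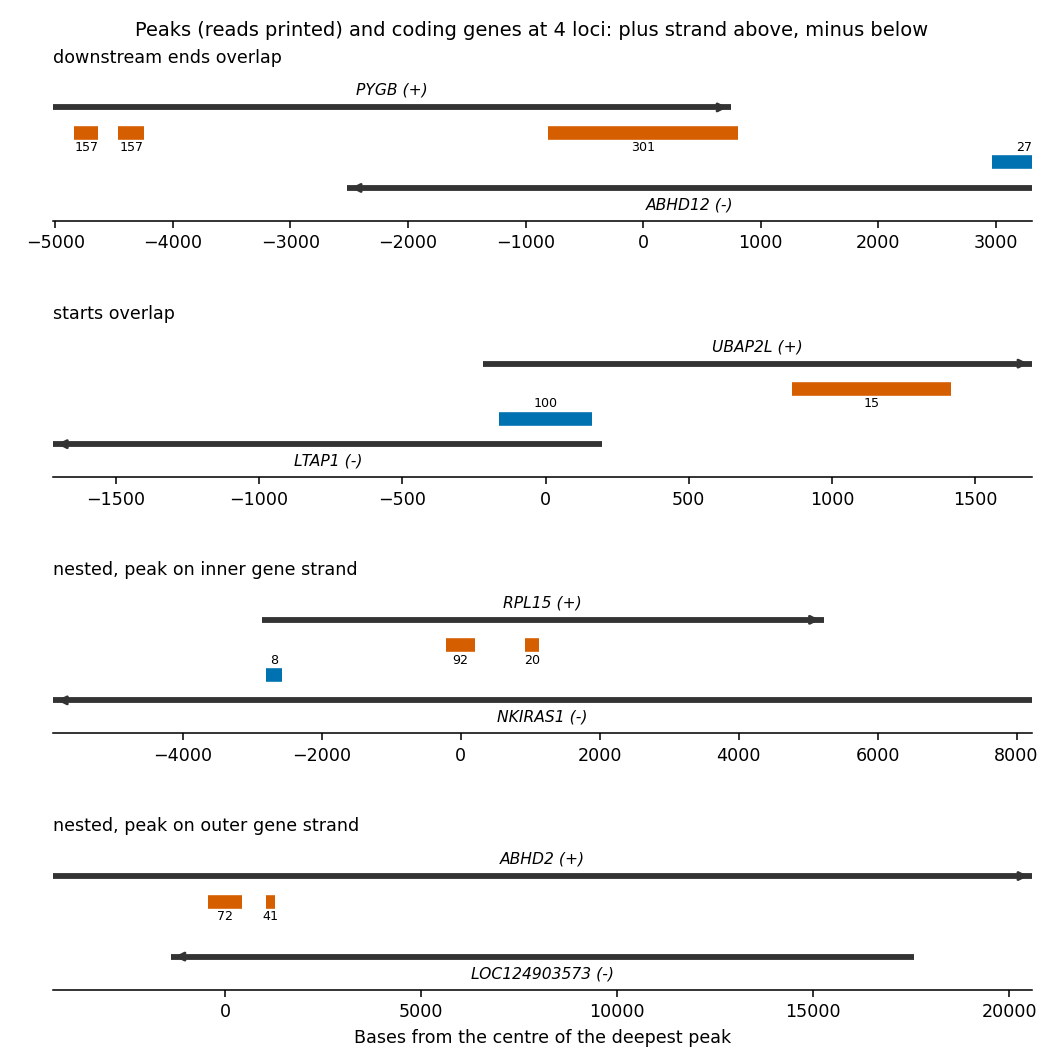
Peaks (boxes, with reads printed) and coding genes (arrows, cut at the panel edges) at 4 loci, by distance in bases from the centre of the deepest overlap peak (x axis), with the plus strand above and the minus strand below. PYGB (301 reads), LTAP1 (100 reads), RPL15 (92 reads) and ABHD2 (72 reads) carry the deepest peak on their own strand while a gene of the opposite strand spans the same bases.

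Peaks on both strands of 1 overlap were found in 29 of the 611 gene sets, and in 17 of the 315 opposite-strand pairs. Of the 611 sets, 439 held a single peak and could not show both strands, so these counts are low in part by construction. In 11 of the 17 the nearest centres of the 2 strands were at most 500 bases apart. The deeper strand had a median of 1.83 times the reads of the other (1.00 to 11.5), with the highest ratio at RPL15 and NKIRAS1. CARM1, for an arginine methyltransferase, had 63 reads over its end and YIPF2 had 20 and 16, with centres as near as 92 bases. ESRRA, for an orphan nuclear receptor, had 56 reads and TRMT112 had 13, with centres 60 bases apart. At RFXANK (26 reads) and NR2C2AP (11 and 9 reads) the nearest centres were 3 bases apart.

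Same-strand overlaps leave the gene open, and readthrough genes made up 118 of the 213 peaks, nested genes 77 and partial overlaps 18. In all, 71 of the 109 readthrough genes in the table had an overlap peak (65.1%), against 1162 of the 4595 coding genes that overlap another (25.3%). A readthrough gene overlaps the genes it joins by construction, often along their whole length. Where all strands were given, the deepest lay in NBL1, for a BMP antagonist, with MICOS10-NBL1, at 131 reads and a fold of 7.88, and in NME2, for a nucleoside diphosphate kinase, with NME1-NME2, at 92 reads. TMED7, for a cargo receptor of the secretory pathway, had the highest fold of these, 18.8 with 60 reads. SLCO1B3, an organic anion transporter gene, had 197 reads with its readthrough gene SLCO1B3-SLCO1B7, which had no strand here, and PABPN1, for the nuclear poly(A)-binding protein, had 132 with BCL2L2-PABPN1. A readthrough gene and the genes it joins share sequence and direction, so these reads cannot be divided between them.

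ALDOA and HMGA1 led the other same-strand overlaps in reads. ALDOA, for aldolase A, held 5 peaks of 110 to 231 reads within the 6136 bases it shares with LOC112694756. HMGA1, for an architectural chromatin protein, had 175 reads (150 to 203) at a fold of 16.2 within 257 bases, with LOC124901225. Histone genes gave 2 of the 3 deepest nested peaks, H2AX with DPAGT1 at 129 reads and H3C4 with H2AC7 at 114 reads and a fold of 20.4. H3C4 and H2AC7 have near-identical copies elsewhere in the genome, and the sources used here do not state how reads were shared among copies.

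The deepest overlap peak was at the keratins of simple epithelia. KRT8 and KRT18 share 1006 bases, where a plus-strand peak lay at chr12:52949162-52949677. Its summit had 721 reads (interval 669 to 776) at a fold of 15.5, and the 10 kb value was 2277 reads. KRT8 is a minus-strand gene in the table and KRT18 had no strand here, so the peak lay against KRT8. A minus-strand peak in the same overlap held 19 reads. FTH1, for the ferritin heavy chain, had minus-strand peaks of 223 and 192 reads where it overlaps the channel gene BEST1, and neither gene had a strand here.

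Among the 272 peaks with a gene of no given strand, the known genes were all on the strand of the peak in 151, all on the opposite strand in 58 and mixed in 4, and no strand was given at all in 59. Those with a fold among the 10 highest were CCDC50 with UTS2B (55 reads, fold 19.0), YARS1, for tyrosyl-tRNA synthetase, with S100PBP (60 reads, 18.2), C8orf76 with ZHX1-C8orf76 (25 reads, 17.1) and GLUD1, for glutamate dehydrogenase, with SHLD2 (61 reads, 16.9). UTS2B and S100PBP lay opposite to their peaks and GLUD1 along its peak. The deepest nested peak of this kind was that of GRINA with PARP10, at 95 reads.

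The sets with most peaks differed in how deep those peaks were. ANKRD11, for a chromatin regulator, and LOC128462377 shared 10 peaks of 37 to 60 reads over 101247 bases, all minus. SLCO1B3-SLCO1B7 with LOC124902894 and RANBP2 with SH3RF3 had 9 each, ANKHD1 with ANKHD1-EIF4EBP3, FAM83G with SLC5A10 and SLCO1B3 with SLCO1B3-SLCO1B7 had 7 each, and CSNK1E with TPTEP2-CSNK1E, LUC7L2 with FMC1-LUC7L2 and PCK2 with NRL had 6 each. The deepest summit among these was the 197 reads of SLCO1B3, against 60 in ANKRD11. The folds in ANKRD11 were 2.47 to 3.63, below the lower quartile of overlap peaks.

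UGT1A genes, which code for glucuronosyltransferases and share their last exons, gave the peaks in most genes. All 6 were on the plus strand, that of the 8 UGT1A genes with a strand here, with 15 to 61 reads. The deepest, at chr2:233760304-233761175 in 9 genes, had a fold of 9.14. Exons were not used, so which of these peaks lie in the shared exons was not settled, and none was given to 1 member of the family. The protocadherin genes PCDHA had 1 peak of 4 reads, and the PCDHG genes had none.

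Over all coding genes, 1162 of 19839 had an overlap peak (5.86%), and the gene families below are given beside that share. Coding genes whose symbols begin with RPL had 19 overlap peaks of 8 to 92 reads in 9 of 55 genes. Of these, 10 were on the strand of the RPL gene, 4 on the opposite strand and 5 not settled, all 5 in RPL5 with DIPK1A at 29 to 71 reads. Ribosomal protein genes have many processed copies in the genome, which could share reads. Symbols beginning with RPS gave 5 peaks, with HNRNP 7 (all on the strand of the HNRNP gene, 10 to 101 reads), with SRSF 3 and with EIF 2. These 4 groups had an overlap peak in 3 of 35, 3 of 26, 3 of 12 and 2 of 55 genes, counts too small to set against the share over all genes. Zinc finger genes named ZNF gave 26 peaks in 22 of 518 genes, near that share, 21 on their own strand and 3 on the opposite strand. TXNRD1, ACADM, RNF213, HUWE1 and MYH9 had no overlap peak.

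The choice of the centre left some peaks near the limit of a second gene. Just inside, ATP5MF with ATP5MF-PTCD1 (22 reads, fold 5.00) and KL with LOC124903151 (11 reads, fold 9.33) had their centre at 0 bases from the edge, and ATP5MK with TAF5 (15 reads, fold 7.55) at 5 bases. Just outside, ADCK5 next to CPSF1 (32 reads, fold 5.19), FBXO9 next to LOC128031835 (24 reads, fold 11.7) and PSME1 next to EMC9 (12 reads, fold 4.74) were 4 bases away. Within 100 bases of an edge lay 81 of the 893 overlap peaks in 2 genes, and 61 single-gene peaks lay that near to a second gene.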

How the data were processed

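The deposited file is 1 list of IP peaks. Per the submitters' processing notes, the authors used cutadapt, BWA, MACS2 and hg38; versions, settings and the pooling of the IP libraries are not stated in those notes. The deposited score equals the integer part of 10 times −log10 q for each of the 21031 peaks. Deposited fold is a ratio of summit to background, and −log10 p and −log10 q are deposited values of the caller, the lowest −log10 q being 1.31. Library depth is not in the list.

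From fold and −log10 p, summit reads were recovered as whole numbers within 0.0001 for 21028 peaks and for all 921 overlap peaks. Overlaps were found with RefSeq GRCh38.p14 (59792 genes, same coordinates as hg38). The table held 153 coding entries with positions of other scaffolds, which were left out, and 12 peaks would count only through them. Gene strand and promoter windows came from the RefSeq promoter table. Exons were not used. No column of another sample was present (0). Shares have Wilson and reads exact Poisson 95% intervals. Python 3.11.15, pandas 2.3.3, numpy 2.4.6, scipy 1.17.1 and matplotlib 3.10.9 were used, and the scripts were tested on simulated data.

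The peaks and gene lists were chosen with earlier results of these data known. Named were the 10 overlap peaks with most reads and the 10 with the highest fold, the gene sets with most peaks, the peaks in most genes, the 3 deepest of each kind, orientation and strand class, the 3 nearest the edge on each side, and members of stated genes and families by counts. Further genes named beyond these, in the paragraphs on arrangements, were chosen after their values were seen and are not in every case the next deepest. Alternatives changed the position rule, the threshold, the gene table and the counting unit.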

Additional observations from a re-analysis of the deposited data

How the results depend on the processing

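The list is 1 call over the IP libraries, so no library could be left out, no spread between replicates is known, and shares and medians have counting intervals only. No paired analysis was possible because the list holds no values of single libraries. Depth limits the shallow peaks most, and absence of a peak is not read as absence of binding. In all, 15 results were recomputed under 11 alternatives, giving 159 values, of which 124 stayed within the intervals of the reported values (counts within 1.5 times) and 35 did not. Using the summit, adding chromosome Y, leaving out narrow deep peaks, or counting the scaffold entries (chosen after seeing the data) moved no result outside its interval. Any overlap of 1 base gave a share of overlap peaks of 5.12%, a median width of 292.5 bases, 19.1% readthrough and 55.9% partial overlaps. With the whole peak inside each gene the share was 3.74%, with 46.1% partial overlaps, and single-gene peaks had a median fold of 5.88 and width of 263 bases. Peaks at or above the median −log10 q left 448 overlap peaks, 54.9% on the plus strand, 23.2% nested and 55.1% partial. Their median fold was 7.46 against 7.56 in single-gene peaks, their reads 31.5 against 33 and their width 334.5 against 314 bases. With −log10 q of 5 or more, the median fold was 6.28 against 6.34, reads 24 against 24 and width 301 against 279 bases. Without LOC genes the share was 4.04%. Without readthrough genes it was 3.43%, with 31.6% nested, 66.8% partial, and 81.4% of peaks with known strands on the strand of some of their genes, against 67.2% as reported. Counting each gene set once, by its deepest peak, gave a median fold of 6.41, a width of 303 bases, 16.2% readthrough, 22.1% nested, 60.4% partial and 73.7% on the strand of some genes. These values differ since each alternative counts fewer or other peaks.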

Other observations

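Small RNA genes lay under 6 overlap peaks. MIR4709 lay on the strand of its peak, at chr14:74479922-74480237 on the minus strand, where NPC2, for a lysosomal cholesterol-binding protein, overlaps SYNDIG1L. The peak held 13 reads at a fold of 8.54 and covered the whole hairpin at chr14:74480133-74480204. The mature sequences in RefSeq GRCh38.p14, with their seeds (bases 2 to 8) in capitals, are given to show what the peak spans. Whether the reads come from the small RNA or from a longer RNA was not tested.
hsa-miR-4709-5p: aCAACAGUgacuugcucuccaa
hsa-miR-4709-3p: uUGAAGAGgaggugcucuguagc

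MIR639 met the edge of a peak of 24 reads in TECR and DNAJB1 on its own strand, and MIR4746 lay opposite to a peak of 17 reads in UBXN6 and CHAF1A. The others were SNORD153 in NCAPD3 and JAM3 (17 reads), SNORD58B in RPL17 (21 reads) and MIR10400 in ZFTRAF1 (27 reads). Genes of nuclear receptors, picked after their values were seen, included NR1D2, for the circadian repressor REV-ERB beta, with 14 reads 269 bases from its start and opposite to NKIRAS1. A peak of 18 reads in NR2C2, for a testicular receptor, was on the strand of MRPS25. ACTA2 and TAGLN, known as smooth muscle markers, were also picked after their values were seen, and no list of such markers was checked. The ACTA2 peak (6 reads) lay on the strand of FAS, a death receptor gene, and the TAGLN peak (21 reads) on that of the protease gene PCSK7, with no strand for TAGLN here.

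Chromosome 14 had the highest share of overlap peaks, 58 of 645 (8.99%, Wilson interval 7.02 to 11.5%), and chromosome 18 the lowest, 7 of 287 (2.44%, 1.19 to 4.95%). GPHN gave 15 of the 58.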
